A study of Mus musculus with 19 samples.

Results

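A set of 52 genes that act in G2 phase and mitosis was followed in RNA of embryonic mouse cortex. The genes were listed by name from known roles in cell division, with earlier results of these data known. All 52 were found among the 51912 genes counted in each library. They fall into 9 roles: entry into mitosis (9 genes), chromosome structure (6), chromosomal passenger complex (4), kinetochore (6), spindle assembly checkpoint (6), anaphase onset (4), spindle motors (6), spindle assembly (5) and cytokinesis (6). Cortex was taken at E13.5 from mice on a mixed C57BL/6 and 129 background, with 1 library per embryo. The 7 ctrl embryos carry the label control, without a further genotype. The 5 cKO-E embryos are conditional mutants that lack *Ino80*, the catalytic subunit of the INO80 nucleosome remodeler, in cells that have expressed *Emx1*-driven Cre. The 7 dKO-E embryos are conditional double mutants that lack *Ino80* and *Trp53*, which encodes p53, in the same cells. *Emx1*-Cre acts in cortical neural progenitors (NPCs) and their descendants, so interneurons, microglia and vessels in the dissected tissue keep both genes. The comparisons ask how transcripts of dividing cells differ between ctrl and cKO-E, and whether they differ between embryos that lack *Ino80* with and without *Trp53*.

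Progression through G2 and mitosis is driven by cyclin A and cyclin B with CDK1, and by the Polo and Aurora kinases. Condensins and topoisomerase II compact and untangle chromosomes, kinetochores attach them to the spindle, and the spindle assembly checkpoint holds back anaphase until each chromosome is attached. Transcripts of most of these genes rise and fall together in the cell cycle. The DREAM complex keeps them low in resting cells, and the MuvB core with B-MYB and FOXM1 activates them in G2. Active p53 lowers many of them through p21, the product of *Cdkn1a*, which moves DREAM onto their promoters. At E13.5 the dividing cells of the cortex are mainly radial glia at the ventricle and intermediate progenitors beneath it.

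The number of counts assigned to genes ran from 820915 to 8095810 per library (median 2952788). Levels are given as CPM, counts scaled to the same effective library size by TMM over all 19 libraries. Over the whole gene, *Ino80* stood at 111 to 129 CPM in ctrl, at 139 to 182 CPM in cKO-E and at 155 to 197 CPM in dKO-E. Every cKO-E and dKO-E embryo was thus above every ctrl embryo, and the log2 difference between cKO-E and ctrl was 0.48 (SE 0.07, adjusted p = 7.92e-05). A count over the whole gene does not test the deleted exons, so it checks neither label, and the groups below are the libraries so labelled. *Trp53* was at 35.7 to 50.4 CPM in ctrl and at 27.4 to 41.6 CPM in dKO-E (log2 fold change -0.36, SE 0.10, adjusted p = 0.0196). The cKO-E embryos, at 34.3 to 44.4 CPM, overlapped both groups. *Cdkn1a* was at 8.26 to 11.8 CPM in the 5 cKO-E embryos, at 0 to 1.62 CPM in ctrl and at 0 to 1.39 CPM in dKO-E, so that cKO-E did not overlap either group. Radial glia and intermediate progenitor markers were present in all groups, but *Sox2*, the neuronal gene *Tubb3* and the S phase gene *Cdt1* were listed at 0 in every library.

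In ctrl, *Mki67*, the source of the Ki-67 proliferation antigen, had the highest level per length of exon of the 52, at 77.4 ± 2.91 CPM per kilobase (SD, n = 7). *Mad1l1*, *Top2a* and *Ckap5* followed at 58.4, 52.05 and 43.7 CPM per kilobase. At the other end stood *Mad2l1* at 4.14 and *Pttg1* at 0.787 CPM per kilobase. *Pttg1*, which encodes securin, had between 0 and 13 counts per library. It did not pass the filter on low counts, so 51 of the 52 members were tested. The spread between ctrl embryos, as the SD over the mean, was 11.9% for the median member and ran from 3.76% for *Mki67* to 25.3% for *Ube2c* among these 51.

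Nearly the whole set lay lower in cKO-E than in ctrl, by small amounts. The log2 fold change was negative for 48 of 51 members and had a median of -0.25, whereas the median over all 11660 genes tested was 0.02, with 46.6% of them negative. At a false discovery rate of 0.05, 17 members fell, against 9.88% of all genes, and 1 member rose, against 7.31% of all genes. The members that fell were *Aurka*, *Cdc25b*, *Foxm1*, *Smc4*, *Mki67*, *Aurkb*, *Cdca8*, *Spc24*, *Spc25*, *Cenpf*, *Bub1b*, *Kif11*, *Kif15*, *Kif20b*, *Tpx2*, *Racgap1* and *Ect2*. *Ckap2* rose. For 7 members (*Aurka*, *Mki67*, *Aurkb*, *Spc24*, *Spc25*, *Kif15* and *Kif20b*) every cKO-E embryo lay below every ctrl embryo, against 5.49% of all genes. At 0.001, *Kif15* was the only member called lower, against 2.32% of all genes. In bulk tissue, fewer dividing cells and less RNA per dividing cell cannot be told apart.

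Without *Trp53* as well as *Ino80*, the set lay near the level of ctrl. In dKO-E the log2 fold change against ctrl was positive for 36 of 51 members and negative for 15, with a median of 0.06, beside 0.01 over all 11381 genes tested. *Kif20b* rose, against 5.45% of all genes, while *Kif15* and *Spc24* fell, against 10% of all genes. With libraries scaled to total counts, 5 members were called higher and 1 lower in dKO-E, against 15.7% and 6.1% of all genes, and the median of all genes moved from 0.01 to 0.10.

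The direct comparison of the mutants gave the largest number of calls. Between dKO-E and cKO-E, 50 of 51 members were higher in dKO-E, with a median log2 fold change of 0.30, beside 0.02 over all 11746 genes tested. At 0.05, 22 members were called higher in dKO-E, against 5.59% of all genes, and 1 was called lower, against 9.42% of all genes. The 22 were *Cdk1*, *Aurka*, *Foxm1*, *Ncapg*, *Ncaph*, *Mki67*, *Aurkb*, *Incenp*, *Cdca8*, *Ndc80*, *Bub1*, *Bub1b*, *Bub3*, *Kif11*, *Kif4*, *Kif18a*, *Kif20b*, *Tpx2*, *Kif23*, *Racgap1*, *Ect2* and *Prc1*, and *Ckap2* was the lower one. Every dKO-E embryo lay above every cKO-E embryo for *Foxm1*, *Aurkb*, *Incenp*, *Bub1b* and *Kif20b*, against 2.26% of all genes. At 0.001 *Kif20b* alone was called higher, against 0.383% of all genes. The 3 comparisons share their embryos, so the calls of one are not independent of those of another. Of the 17 members lower in cKO-E, 11 were also called higher in the direct comparison of dKO-E with cKO-E, and 6 (*Cdc25b*, *Smc4*, *Spc24*, *Spc25*, *Cenpf* and *Kif15*) were not called between the mutants.

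**Figure D1:**
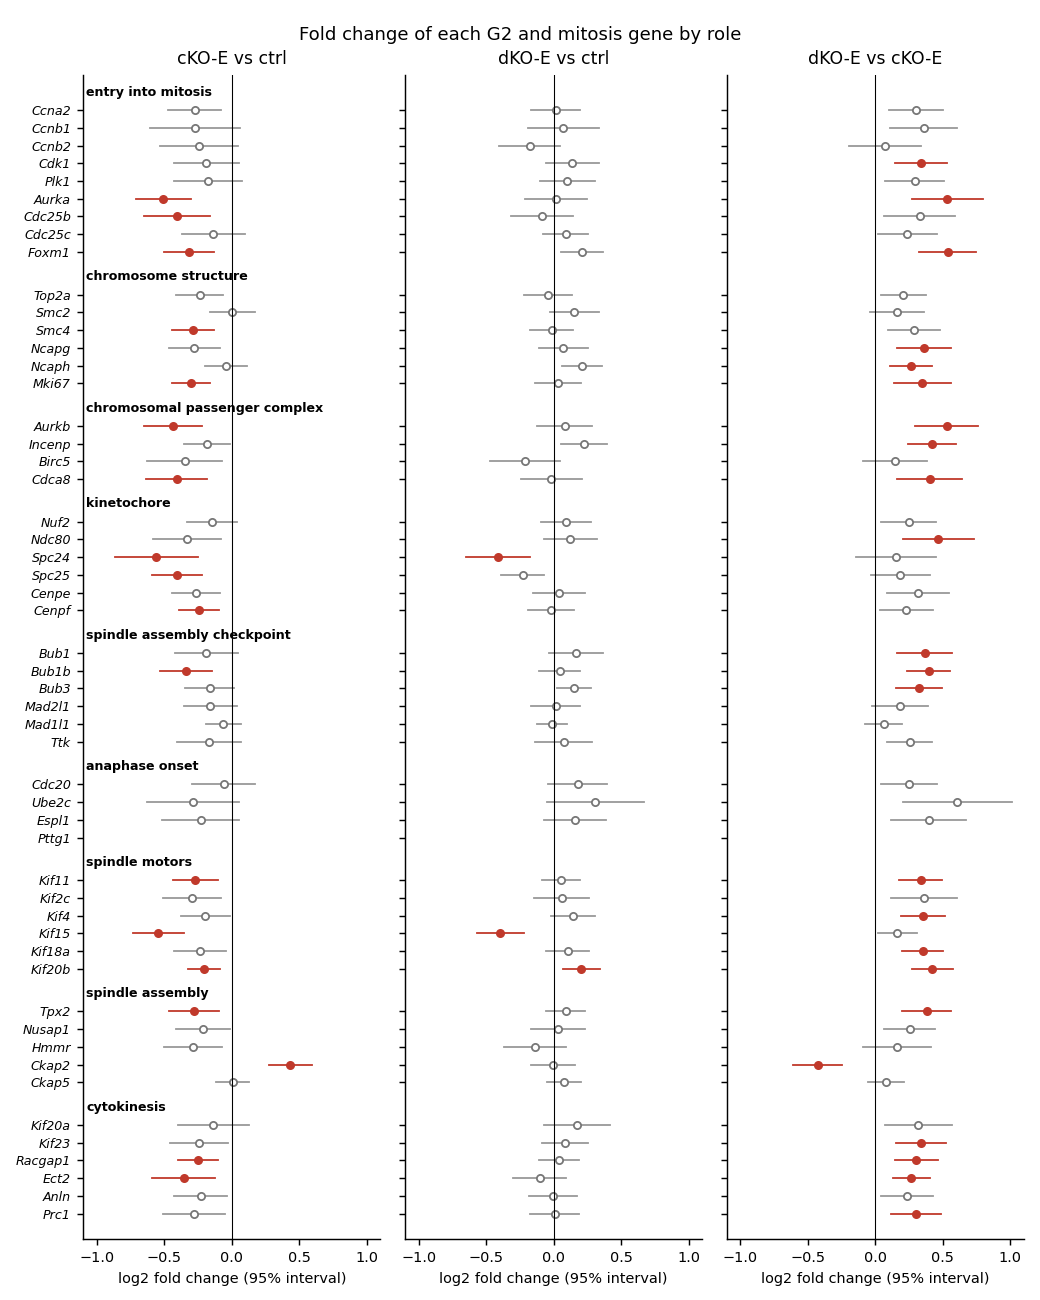
Log2 fold change with its 95% interval (x axis) of each member, grouped by role (y axis), in the 3 comparisons. Filled red points passed a false discovery rate of 0.05: 17 lower and 1 higher in cKO-E than ctrl, 2 lower and 1 higher in dKO-E than ctrl, and 22 higher and 1 lower in dKO-E than cKO-E. *Pttg1* was not tested.

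The groups overlapped when single embryos were compared over the whole set. The summed level of the 52 genes ran from 5512 to 7038 CPM in ctrl with a median of 5985 CPM. It was 5188 CPM at the median of the cKO-E embryos, which ran from 4558 to 5726 CPM, and 6205 CPM at that of the dKO-E embryos, which ran from 5257 to 7279 CPM. The embryo cKO-E C, a male of litter 5, was the lowest of all 19. In it 51 of 52 members were below the ctrl mean, and the median log2 ratio to that mean was -0.47. The other 4 cKO-E embryos had medians from -0.34 to -0.09. ctrl H and dKO-E B were the highest, at 0.21 and 0.26, and ctrl B and dKO-E A were low for their groups, at -0.18 and -0.17.

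**Figure D2:**
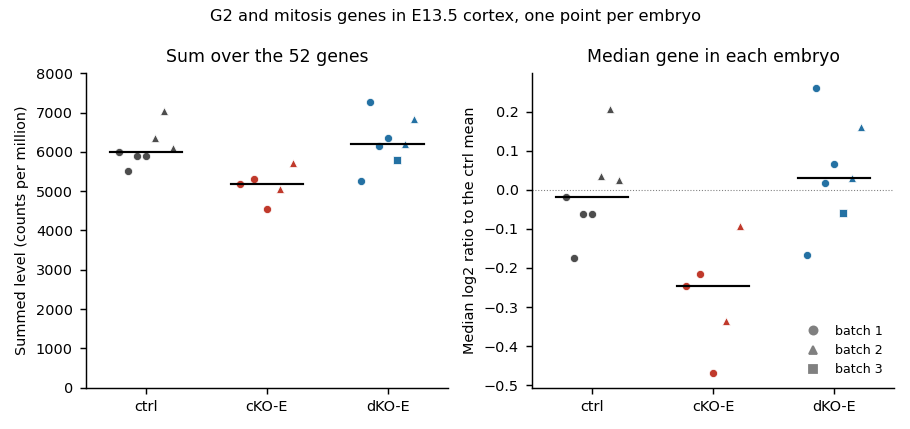
Each point is an embryo, with its batch as the symbol and the group median as a line. Left, summed level of the 52 genes in CPM (y axis) by group (x axis). Right, median over the 52 genes of the log2 ratio to the ctrl mean. The cKO-E embryos sit between 4558 and 5726 CPM, and the lowest point of both panels is cKO-E C.

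Leaving out cKO-E C lowered the number of members called lower in cKO-E from 17 to 5, against 7.46% of all genes in that fit. The number called higher in dKO-E than cKO-E went from 22 to 10, against 2.91% of all genes. The median log2 fold changes were then -0.21 and 0.26. Calls that held without each library in turn were those of *Aurka*, *Mki67*, *Aurkb*, *Spc25* and *Kif15* as lower and *Ckap2* as higher in cKO-E. Between the mutants, *Aurka*, *Foxm1*, *Aurkb*, *Incenp*, *Bub1b*, *Kif11*, *Kif4*, *Kif18a*, *Kif20b* and *Tpx2* held as higher in dKO-E, and *Ckap2* as lower. In dKO-E against ctrl, *Kif15* held as lower in these omissions. The call of *Spc24* was lost without ctrl C, ctrl H, dKO-E B or dKO-E C, with adjusted p up to 0.0585, and that of *Kif20b* was lost in 10 of 14 omissions, with adjusted p up to 0.0954 without ctrl B.

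The batches given in the labels, litter and sex were not spread evenly over the groups. Within batch 1, with 4 ctrl and 3 cKO-E embryos, 13 members were lower in cKO-E, against 8.67% of all genes, and the median was -0.22. Within batch 2, with 3 and 2 embryos, 3 members were lower, against 2.7% of all genes, and the median was -0.27. Between dKO-E and cKO-E, 16 members were higher in batch 1, against 3.66% of all genes, with a median of 0.38. In batch 2, 0 were called, against 0.231% of all genes, and the median was 0.22. In dKO-E against ctrl the median was 0.17 in batch 1, with 3 members higher (3.5% of all genes) and 1 lower (8.19% of all genes), and -0.08 in batch 2, with 1 lower (2.53% of all genes), so its direction turned. Batch 3 held dKO-E E alone. Of the cKO-E embryos, 3 had ctrl littermates. Against its littermates, cKO-E B was lower for 41 of 52 members (median log2 ratio -0.15, 1 littermate), cKO-E C for 50 (-0.46, 2 littermates) and cKO-E E for 49 (-0.18, 2 littermates). Of the dKO-E embryos with ctrl littermates, dKO-E A was lower for 30 of 52 members (-0.05), whereas dKO-E B was higher for 46 (0.39) and dKO-E C for 42 (0.10). All 7 dKO-E embryos came from 2 litters. No litter held both cKO-E and dKO-E embryos, so litter and genotype cannot be told apart between the mutants. Females made up 4 of 5 cKO-E and 2 of 7 dKO-E embryos. With sex as a covariate, 25 members were lower in cKO-E than ctrl, against 10.4% of all genes, and 31 higher in dKO-E than cKO-E, against 9.19% of all genes.

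Promoters of the members are shown because genes of this kind often share 2 elements, the cell cycle genes homology region (CHR), which binds MuvB, and the CCAAT box, which binds NF-Y. RefSeq promoters on GRCm38.p6, from 250 bases before to 50 bases after the start, were found for 43 members. *Foxm1*, *Ccna2*, *Cdc25c*, *Smc4*, *Aurkb*, *Incenp*, *Spc24*, *Tpx2* and *Kif20a* had none in the table. The CHR was searched as TTTGAA or TTCGAA and the box as CCAAT, on both strands. A CHR was held by 33 of the 43 members (76.7%) and by 21.7% of all 27025 genes in the table, and a CCAAT box by 30 members (69.8%) and 41.1% of all genes. Within 50 bases on each side of the start, 30 members (69.8%) and 6.12% of all genes held a CHR, and 20 members (46.5%) and 1.01% of all genes held both elements. Below are the bases just before the start of *Cdk1*, *Ncapg* and *Kif11*, which were called between the mutants and hold a CHR there. Many others called between the mutants, such as *Aurka*, *Bub1*, *Bub1b*, *Ect2*, *Kif18a*, *Kif20b* and *Kif23*, hold none in those bases. The stretches shown thus do not stand for the called members. Also shown are *Kif15*, the member with the smallest p in cKO-E, *Mki67*, the highest in level per length, and *Ckap2*, the one that rose. Capitals mark the CHR and the CCAAT box on either strand.
*Cdk1*, chr10:69352914-69353012, minus strand: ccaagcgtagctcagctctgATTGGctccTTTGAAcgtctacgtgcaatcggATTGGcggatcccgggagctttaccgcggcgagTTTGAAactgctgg
*Ncapg*, chr5:45669825-45669924, plus strand: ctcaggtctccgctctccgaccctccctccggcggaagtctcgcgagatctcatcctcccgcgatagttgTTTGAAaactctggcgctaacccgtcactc
*Kif11*, chr19:37376282-37376381, plus strand: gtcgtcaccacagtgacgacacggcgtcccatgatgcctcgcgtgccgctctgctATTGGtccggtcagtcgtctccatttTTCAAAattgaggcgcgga
*Kif15*, chr9:122950981-122951070, plus strand: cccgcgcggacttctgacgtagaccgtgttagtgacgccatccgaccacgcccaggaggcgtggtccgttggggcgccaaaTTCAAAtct
*Mki67*, chr7:135716380-135716479, minus strand: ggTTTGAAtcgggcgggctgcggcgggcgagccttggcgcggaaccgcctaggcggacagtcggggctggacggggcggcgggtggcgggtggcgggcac
*Ckap2*, chr8:22185820-22185919, minus strand: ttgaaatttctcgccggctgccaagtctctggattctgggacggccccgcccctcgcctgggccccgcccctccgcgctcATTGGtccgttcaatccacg
The last base of the CHR lies 10 bases before the start in *Cdk1*, 14 in *Kif11* and *Kif15*, 25 in *Ncapg* and 93 in *Mki67*. The stretches of *Cdk1* and *Kif15* stop 1 and 10 bases short of the start. In the bases shown *Ckap2* has a CCAAT box and no CHR, although its window of 300 bases does hold one. In cKO-E against ctrl the median log2 fold change was -0.24 over the 30 members with a CHR within 50 bases of the start and -0.22 over the 12 tested members without. Called lower there were 11 with a CHR and 1 without, against 9.88% of all genes, and 1 without was called higher. Between the mutants the medians were 0.31 and 0.26. Called higher in dKO-E were 15 with a CHR and 3 without, against 5.59% of all genes, and 1 without was called lower. Whether members with and without a CHR differ was not tested.

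**Figure D3:**
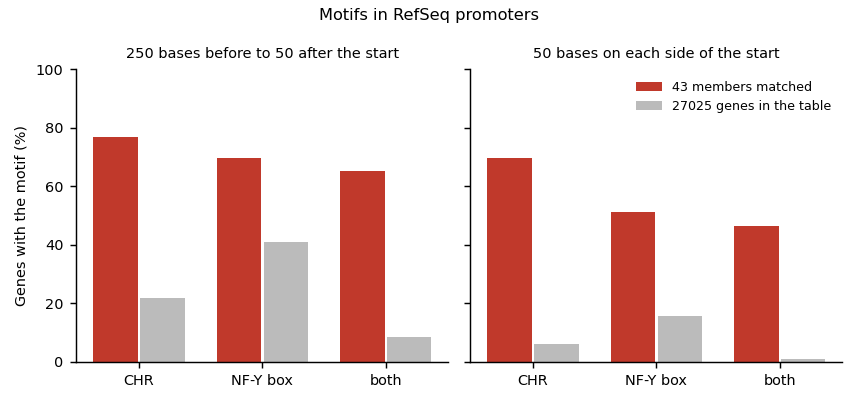
Share of genes (y axis, percent) whose RefSeq promoter holds a CHR, the NF-Y box or both, for the 43 matched members (red) and all 27025 genes (grey). Within 50 bases of the start, 69.8% of the members and 6.12% of all genes hold a CHR.

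Among the genes of mitotic entry, 3 of 9 fell in cKO-E, against 9.88% of all genes. None were called in dKO-E against ctrl, where 5.45% of all genes rose and 10% fell. Higher in dKO-E than cKO-E were 3, against 5.59% of all genes. *Aurka* (chr2:172356190-172370535), which encodes the Aurora kinase of centrosomes and spindle poles, was at 35.0, 36.7, 29.8, 30.7 and 30.8 CPM in the cKO-E embryos. The ctrl embryos ran from 40.0 to 54.0 CPM with a median of 46.5, and the dKO-E embryos from 32.4 to 63.8 CPM with a median of 47.3. All cKO-E embryos were below all ctrl embryos, and only dKO-E A reached into their range. By edgeR's quasi-likelihood test *Aurka* fell by 0.51 on the log2 scale in cKO-E (SE 0.10, adjusted p = 0.0026), and was 0.54 higher in dKO-E than cKO-E (SE 0.13, adjusted p = 0.00954). *Foxm1* (chr6:128362967-128376146) encodes the transcription factor that drives the G2 program. Its cKO-E levels were 54.6, 65.4, 42.7, 54.3 and 56.9 CPM, beside 61.1 to 77.3 CPM in ctrl (median 70.2) and 67.3 to 99.6 CPM in dKO-E (median 78.1). cKO-E B reached into the ctrl range, but every dKO-E embryo was above every cKO-E embryo. *Foxm1* fell by 0.32 on the log2 scale in cKO-E (SE 0.09, adjusted p = 0.0269), a call lost without cKO-E A or cKO-E C (adjusted p up to 0.081). It was 0.54 higher in dKO-E than cKO-E (SE 0.11, adjusted p = 0.00188). *Cdc25b*, a phosphatase that activates CDK1, fell by 0.41 on the log2 scale in cKO-E (adjusted p = 0.0327), a call lost in 7 of 12 omissions (adjusted p up to 0.112). *Cdk1* itself was called between the mutants alone, with a log2 fold change of 0.34 (adjusted p = 0.0253). The cyclins *Ccna2*, *Ccnb1* and *Ccnb2*, the Polo kinase *Plk1* and the phosphatase *Cdc25c* passed no test. Their log2 fold changes in cKO-E ran from -0.28 for *Ccna2* to -0.14 for *Cdc25c*.

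Chromosome structure genes changed unevenly. *Mki67* (chr7:135689784-135716361), whose product coats mitotic chromosomes, was at 607, 678, 529, 595 and 730.4 CPM in cKO-E. It was at 747 to 835 CPM in ctrl (median 764) and at 572 to 979.7 CPM in dKO-E (median 781). All cKO-E embryos were below all ctrl embryos, whereas the dKO-E embryos spanned both ranges, with dKO-E A lowest. *Mki67* fell by 0.30 on the log2 scale in cKO-E (SE 0.07, adjusted p = 0.00711), and was 0.35 higher in dKO-E than cKO-E (SE 0.11, adjusted p = 0.0356). The second call was lost in 6 of 12 omissions, with adjusted p up to 0.12 without cKO-E C. *Smc4* (chr3:69004738-69034623), the condensin ATPase, stood at 178, 178, 151, 149 and 207 CPM in cKO-E, at 203 to 244 CPM in ctrl (median 208) and at 148 to 243 CPM in dKO-E (median 216). cKO-E E lay within the ctrl range and the other 4 below it. *Smc4* fell by 0.29 on the log2 scale in cKO-E (SE 0.08, adjusted p = 0.0174), a call lost without cKO-E C (adjusted p = 0.0623). Its partner *Smc2* had a log2 fold change of 0.00 (95% interval -0.16 to 0.17). The non-SMC condensin subunits *Ncapg* and *Ncaph* were called between the mutants, at 0.36 and 0.27. *Ncaph* was at -0.04 (SE 0.08) in cKO-E and *Ncapg* at -0.28 (adjusted p = 0.053). *Top2a*, the topoisomerase of dividing cells, was at -0.24 in cKO-E (adjusted p = 0.0714).

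The chromosomal passenger complex, which corrects faulty kinetochore attachments, had the most negative median of the 9 roles in cKO-E, at -0.38 over its 4 genes. *Aurkb* (chr11:69045647-69051664), its kinase, was at 33.3, 27.2, 28.0, 22.4 and 31.5 CPM in cKO-E. The ctrl embryos had 35.5 to 49.8 CPM (median 38.3) and the dKO-E embryos 36.2 to 50.4 CPM (median 42.0), so cKO-E was separate from both. *Aurkb* fell by 0.44 on the log2 scale in cKO-E (SE 0.11, adjusted p = 0.0103) and differed by 0.53 (SE 0.12, adjusted p = 0.00454) between the mutants. *Incenp* (chr19:9872296-9899551), the scaffold of the complex, was at 80.9, 89.7, 74.8, 83.8 and 89.8 CPM in cKO-E, at 83.0 to 111 CPM in ctrl (median 97.1) and at 98.6 to 136 CPM in dKO-E (median 107). cKO-E overlapped ctrl and was below every dKO-E embryo. It was not called in cKO-E (-0.18, adjusted p = 0.169) and was higher in dKO-E than cKO-E by 0.42 (SE 0.09, adjusted p = 0.00343). *Cdca8*, which encodes Borealin, fell in cKO-E by 0.41 (adjusted p = 0.0218), a call lost in 2 of 12 omissions, and was higher in dKO-E than cKO-E by 0.40 (adjusted p = 0.032). *Birc5*, which encodes Survivin, passed no test, with -0.35 (adjusted p = 0.104) in cKO-E and -0.21 in dKO-E against ctrl.

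At the kinetochore, 3 of 6 genes fell in cKO-E, against 9.88% of all genes. Higher in dKO-E than cKO-E was 1, against 5.59% of all genes. NUF2, NDC80, SPC24 and SPC25 together form the NDC80 complex that binds microtubules. *Spc25* (chr2:69193895-69206194) was at 55.3, 44.7, 36.5, 44.8 and 49.5 CPM in cKO-E, at 56.1 to 66.5 CPM in ctrl (median 62.2) and at 41.6 to 64.8 CPM in dKO-E (median 51.7). Every cKO-E embryo was below every ctrl embryo, and dKO-E overlapped both. It fell by 0.40 on the log2 scale in cKO-E (SE 0.09, adjusted p = 0.00688), was at -0.23 in dKO-E against ctrl (adjusted p = 0.0665) and at 0.19 between the mutants (95% interval -0.03 to 0.41). *Spc24*, described although 2 other kinetochore genes had smaller p values, showed the same order at a lower depth of 6 to 98 counts per library. It was at 13.0, 13.5, 9.21, 7.08 and 12.9 CPM in cKO-E, at 14.6 to 23.1 CPM in ctrl (median 17.3) and at 11.3 to 15.7 CPM in dKO-E (median 13.0). On the log2 scale it fell by 0.56 in cKO-E (SE 0.16, adjusted p = 0.0215). Against ctrl, dKO-E was at -0.41 (SE 0.12, adjusted p = 0.0249), and the difference between the mutants was 0.15 (95% interval -0.14 to 0.45). *Ndc80* (chr17:71496100-71526857) was called between the mutants alone. Its cKO-E levels were 48.3, 37.3, 28.4, 31.8 and 47.4 CPM, within and below the ctrl range of 42.4 to 58.4 CPM (median 48.8), and dKO-E ran from 42.9 to 68.5 CPM (median 56.8). It was not called in cKO-E (-0.33, adjusted p = 0.0903) and was higher in dKO-E than cKO-E by 0.47 (SE 0.13, adjusted p = 0.0233), a call lost without cKO-E B or cKO-E C (adjusted p up to 0.0889). *Nuf2* was at -0.15 in cKO-E and passed no test. *Cenpf*, an outer kinetochore protein of G2 cells, fell by 0.24 in cKO-E (adjusted p = 0.0355), a call lost in 5 of 12 omissions (adjusted p up to 0.11), and the kinesin *Cenpe* was at -0.27 (adjusted p = 0.05), just outside the threshold.

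Of the spindle assembly checkpoint genes, 1 of 6 fell in cKO-E, against 9.88% of all genes. Higher in dKO-E than cKO-E were 3, against 5.59% of all genes. *Bub1b* (chr2:118598211-118641591), which encodes BUBR1, a part of the complex that inhibits the anaphase-promoting complex, was at 96.2, 92.3, 81.8, 89.6 and 113 CPM in cKO-E. ctrl ran from 104 to 148 CPM (median 119) and dKO-E from 117 to 147 CPM (median 119). cKO-E E reached into the ctrl range, and all dKO-E embryos were above all cKO-E embryos. *Bub1b* fell by 0.34 on the log2 scale in cKO-E (SE 0.10, adjusted p = 0.0237), a call lost without cKO-E B or cKO-E C (adjusted p up to 0.0804). It was 0.40 higher in dKO-E than cKO-E (SE 0.08, adjusted p = 0.0024). *Bub3* (chr7:131560222-131571895), its partner, was at 55.3, 48.5, 43.1, 40.1 and 58.3 CPM in cKO-E, at 49.6 to 61.1 CPM in ctrl (median 55.9) and at 56.7 to 65.4 CPM in dKO-E (median 64.3). cKO-E A and cKO-E E lay among the ctrl embryos. It was higher in dKO-E than cKO-E by 0.32 (SE 0.09, adjusted p = 0.0154), and not without cKO-E C (adjusted p = 0.0653). The kinase *Bub1* was also higher in dKO-E than cKO-E, by 0.37 (adjusted p = 0.0217). *Ttk*, the checkpoint kinase MPS1, was at 0.26 (adjusted p = 0.05), just outside the threshold, and *Mad2l1* at 0.19. *Mad1l1* was close to 0 throughout, at -0.06, -0.01 and 0.06 in the 3 comparisons with an SE of 0.06 to 0.07.

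None of the 3 tested genes of anaphase onset was called in any comparison by the main fit, edgeR's quasi-likelihood test with TMM factors. All 3 had an unadjusted p under 0.05 between the mutants, and edgeR's likelihood-ratio test called *Ube2c* higher in dKO-E there. Among other fits, those without a filter or with total counts called both *Ube2c* and *Espl1* there. The fit with the replicate block also called *Ube2c* in cKO-E against ctrl. *Ube2c*, the ubiquitin-conjugating enzyme of the anaphase-promoting complex, had the widest spread of the 51 tested members in each group. It was at 28.6, 34.4, 20.3, 16.5 and 22.7 CPM in cKO-E, at 20.5 to 39.9 CPM in ctrl and at 23.9 to 54.2 CPM in dKO-E, so the 3 ranges overlapped. Its difference between the mutants, 0.61 (SE 0.21, adjusted p = 0.0529), was the largest positive value of the 51 members and missed the threshold. Of its exon bases, 22.8% are overlapped on the other strand by *Tnnc2*, and whether counting used strand is not given in the sources used here. *Cdc20*, the activator of the complex, was at -0.06 and separase, *Espl1*, at -0.23 in cKO-E.

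Spindle motors held the members with the smallest p values. *Kif15* (chr9:122951046-123018733), a kinesin that keeps the 2 spindle poles apart, was at 124, 129.9, 117, 129.8 and 139.9 CPM in cKO-E. It was at 161 to 244 CPM in ctrl (median 181) and at 116 to 162 CPM in dKO-E (median 144). Every cKO-E embryo was below every ctrl embryo, and of the dKO-E embryos only dKO-E B exceeded the lowest ctrl embryo. It fell by 0.55 on the log2 scale in cKO-E (SE 0.10, adjusted p = 0.000809) and by 0.39 in dKO-E against ctrl (SE 0.09, adjusted p = 0.00449), with adjusted p up to 0.00409 and 0.0123 when each library was left out. With litter as a block the call in cKO-E held, but that in dKO-E was lost (-0.27, adjusted p = 0.173). Between the mutants it was at 0.16 (95% interval 0.02 to 0.31, adjusted p = 0.154). *Kif20b* (chr19:34922361-34975745), a kinesin of the late spindle and midbody, showed another order. Its cKO-E levels were 106, 106, 95.8, 101 and 104 CPM, below the 107 to 127 CPM of ctrl (median 121) and the 112 to 159.9 CPM of dKO-E (median 139). The cKO-E embryos were thus separate from both groups, though the gap to ctrl I was small. *Kif20b* fell by 0.21 on the log2 scale in cKO-E (SE 0.06, adjusted p = 0.0225), a call lost without cKO-E C (adjusted p = 0.0766). It rose by 0.21 in dKO-E against ctrl (SE 0.07, adjusted p = 0.0465) and was 0.42 higher in dKO-E than cKO-E (SE 0.08, adjusted p = 0.000911). *Kif11*, the motor whose work *Kif15* shares, fell by 0.27 in cKO-E (adjusted p = 0.0386), a call lost in 8 of 12 omissions (adjusted p up to 0.121), and was higher in dKO-E than cKO-E by 0.34 (adjusted p = 0.00749). *Kif4* and *Kif18a*, which act on chromosome arms and on chromosome alignment, were called between the mutants alone, at 0.35 each, and *Kif2c*, a microtubule depolymerase, passed no test.

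*Ckap2* was the exception to the pattern. This gene (chr8:22168160-22185819) encodes a microtubule-binding protein of the spindle. In cKO-E it was at 58.9, 65.7, 63.0, 49.5 and 72.2 CPM, in ctrl at 44.1 to 52.4 CPM (median 46.2) and in dKO-E at 39.7 to 55.9 CPM (median 45.6). Of the cKO-E embryos 4 were above all ctrl and dKO-E embryos, and cKO-E D lay within both ranges. *Ckap2* rose by 0.43 on the log2 scale in cKO-E (SE 0.08, adjusted p = 0.0016), was at -0.01 (95% interval -0.17 to 0.16) in dKO-E against ctrl and at -0.43 (SE 0.09, adjusted p = 0.00399) between the mutants. *Tpx2* (chr2:152847964-152895321), which activates Aurora A on the spindle, followed the rest of the set. It was at 154, 154, 129, 193 and 172 CPM in cKO-E, at 180.4 to 234 CPM in ctrl (median 186) and at 177 to 240.2 CPM in dKO-E (median 206), and cKO-E D lay among the ctrl embryos. Its call in cKO-E (-0.28, SE 0.10, adjusted p = 0.0489) was lost in 8 of 12 omissions, with adjusted p up to 0.154 without cKO-E C, and that between the mutants (0.38, SE 0.09, adjusted p = 0.00776) held in each. *Nusap1*, *Hmmr* and *Ckap5* passed no test. *Ckap5*, a microtubule polymerase with roles outside mitosis too, was at 0.01 (95% interval -0.12 to 0.13) in cKO-E.

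**Figure D4:**
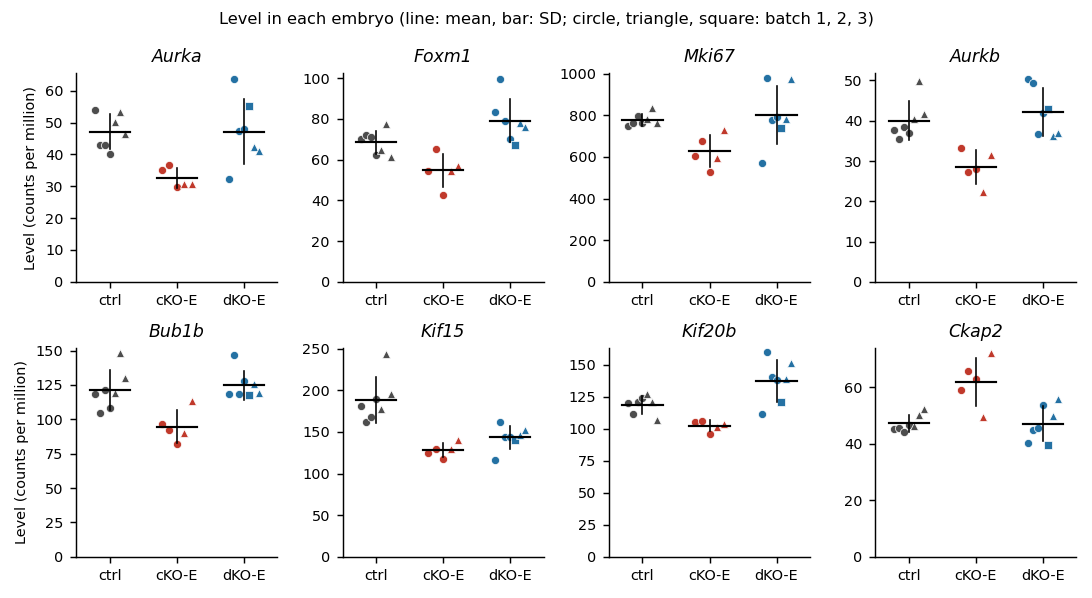
Level in CPM (y axis, from 0) of 8 members in each embryo by group (x axis), with the mean as a line and the SD as a bar. *Ckap2* is higher in 4 of 5 cKO-E embryos than in any ctrl embryo, *Kif15* is low in both mutants, and the other 6 are low in cKO-E.

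Cytokinesis genes fell in cKO-E for 2 of 6, against 9.88% of all genes. They were higher in dKO-E than cKO-E for 4 of 6, against 5.59% of all genes. *Racgap1* (chr15:99620496-99651656), a subunit of centralspindlin, was at 98.5, 103, 91.3, 94.4 and 111 CPM in cKO-E, at 107 to 137 CPM in ctrl (median 122) and at 93.2 to 137 CPM in dKO-E (median 124). cKO-E E reached into the ctrl range, and dKO-E E lay among the cKO-E embryos. It was at -0.25 (SE 0.08, adjusted p = 0.0303) in cKO-E, a call lost in 6 of 12 omissions with adjusted p up to 0.096 without cKO-E C, and at 0.30 (SE 0.08, adjusted p = 0.015) between the mutants, lost without cKO-E C (adjusted p = 0.0591). *Ect2* (chr3:27097222-27153878), the exchange factor that turns on RhoA at the cleavage furrow, was at 96.9, 109.5, 93.2, 95.5 and 88.4 CPM in cKO-E, at 93.9 to 160.1 CPM in ctrl (median 120.0) and at 99.4 to 125 CPM in dKO-E (median 122). All 3 ranges overlapped. Its call in cKO-E (-0.36, SE 0.12, adjusted p = 0.0454) was lost in 9 of 12 omissions (adjusted p up to 0.105), and that between the mutants (0.27, SE 0.07, adjusted p = 0.014) without cKO-E C (adjusted p = 0.05). *Kif23*, the motor of centralspindlin, and *Prc1*, which bundles midzone microtubules, were higher in dKO-E than cKO-E by 0.34 and 0.30. *Kif20a* and *Anln* were at -0.14 and -0.23 in cKO-E and passed no test.

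Other genes of the cell cycle were counted from lists that do not overlap the 52, also chosen with earlier results of these data known. Their counts in cKO-E stand beside 9.88% of all genes called lower and 7.31% called higher, and those in dKO-E against cKO-E beside 5.59% called higher. Of 56 further mitosis genes, 12 fell and 1 rose in cKO-E, with a median log2 fold change of -0.19. *Aspm* and *Ckap2l*, both of spindle poles, fell by 0.37 and 0.40, and *Gtse1*, a p53-induced gene of S and G2 phase, rose by 0.53 (adjusted p = 0.00953). Between the mutants 23 of the 56 were higher in dKO-E, with a median of 0.30, and *Gtse1* was at -0.39 (adjusted p = 0.0564). Of 27 S phase genes tested, 4 fell in cKO-E (median -0.19), and 7 were higher in dKO-E than cKO-E (median 0.22). The replication genes *Pola1* and *Mcm2* fell in both mutants against ctrl, by 0.64 and 0.79 in cKO-E and by 0.55 and 0.71 in dKO-E. Of 12 DREAM and MuvB genes, 3 fell in cKO-E. *Lin9*, a subunit of the MuvB core, was at 59.9 to 81.4 CPM in ctrl, 23.6 to 36.9 CPM in cKO-E and 31.6 to 49.6 CPM in dKO-E, so that both mutants were separate from ctrl. Its log2 fold change was -1.05 (SE 0.10) in cKO-E, -0.89 (SE 0.09) in dKO-E and 0.17 (SE 0.11) between the mutants. *Lin52* and *Lin54* fell in cKO-E, by 0.30 each. Among 13 G2 checkpoint genes tested, *Cdkn1a* and *Ccng1* rose in cKO-E, and *Rprm* and the CDK1-inhibiting kinase *Wee1* fell. *Cdkn1a* had 0 to 5 counts per library in ctrl and 7 to 37 in cKO-E. It passed the filter on low counts only through cKO-E, so its call adds nothing to its levels given above. Of 14 cohesin genes, *Stag1* and *Hdac8* fell in cKO-E, and of 16 subunits and inhibitors of the anaphase-promoting complex 3 rose and 2 fell. The counts lower for the S phase, cohesin and anaphase-promoting complex lists are near the share of all genes, and nothing is read from them.

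Markers of some cell types also differed between the groups. Counts called in cKO-E stand beside 7.31% of all genes called higher and 9.88% called lower. Those lower in dKO-E against ctrl stand beside 10% of all genes. Of 14 radial glia markers tested, 8 fell in cKO-E and *Fabp7* rose, with a median of -0.35, and their summed level was 2418 to 2950.0 CPM in ctrl, 1931 to 2557 CPM in cKO-E and 2068 to 2858 CPM in dKO-E. The ratio of the summed level of the 52 genes to that of the radial glia markers was 2.35 ± 0.0642 for ctrl (SD, n = 7). It was 2.38 ± 0.178 for cKO-E (SD, n = 5), and for dKO-E it was 2.68 ± 0.279 (SD, n = 7). Intermediate progenitor markers fell in cKO-E for 3 of 10 (*Neurog2*, *Eomes* and *Elavl4*). *Elavl4* had the most counts of this list, at 256 to 3348 per library beside 114 to 1595 for *Eomes*. It thus weighs most in the summed level of the list. The summed level ran from 805 to 988 CPM in ctrl, 685 to 841 CPM in cKO-E and 637 to 965 CPM in dKO-E. Of 13 neuron markers, 3 rose and 2 fell in cKO-E, and 6 fell in dKO-E against ctrl, with summed levels of 4644 to 7917 CPM, 5544 to 7321 CPM and 3968 to 5762 CPM in ctrl, cKO-E and dKO-E. Cajal-Retzius markers rose in cKO-E for 4 of 6, from 576 to 748 CPM in ctrl to 912 to 1043 CPM, beside 505 to 693 CPM in dKO-E. Of 12 microglia markers listed, 4 passed the filter on low counts in cKO-E against ctrl, and 1 in dKO-E against ctrl. All 4 were called higher in cKO-E. Most of them entered the test through the cKO-E embryos, where they are high, so nothing is read from that count. The summed level of the 12 was 8.87 to 19.4 CPM in ctrl, 37.6 to 46.8 CPM in cKO-E and 8.10 to 12.7 CPM in dKO-E. Interneuron markers rose in cKO-E for 1 of 4 tested, with summed levels of 9.50 to 86.8 CPM in ctrl, 67.1 to 122.6 CPM in cKO-E and 30.3 to 71.0 CPM in dKO-E. No endothelial, red cell or meninges marker that was tested was called in any comparison. Of 8 listed for each, 6 endothelial, 2 or 3 red cell and 2 meninges markers passed the filter on low counts. Single embryos did differ in the meninges gene *Col3a1*. It had 178 and 186 counts in dKO-E B and dKO-E C, 55 in ctrl F and 0 to 20 in the others. The lack of calls thus does not show that these tissues were even across embryos. The 1 interneuron marker higher and the 2 neuron markers lower in cKO-E are few beside the shares of all genes, and nothing is read from those counts. The part of these cell types in the values of the 52 genes was not tested.

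**Figure D5:**
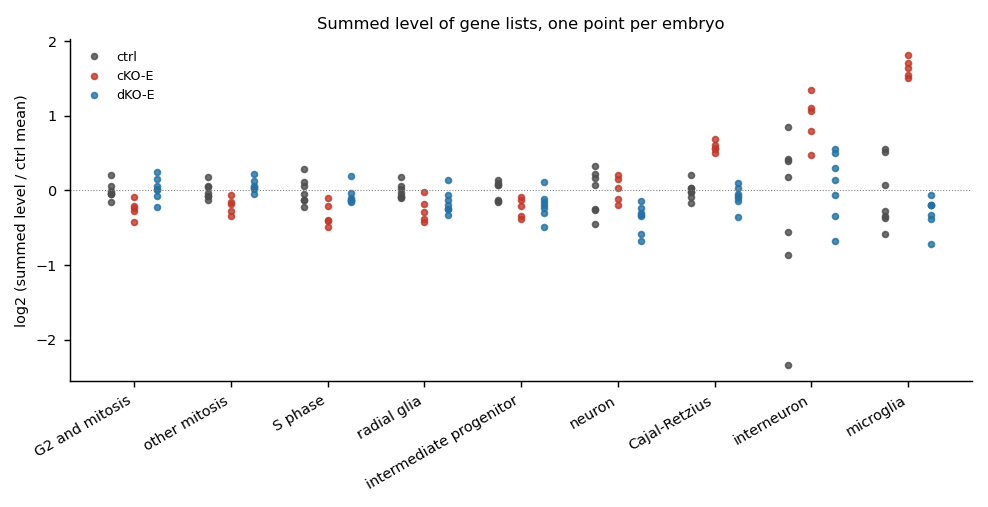
Log2 of the summed level of each list over its ctrl mean (y axis), with 1 point per embryo and the lists along the x axis. The G2 and mitosis, other mitosis, S phase and progenitor lists have lower medians in cKO-E than in ctrl, and the microglia and Cajal-Retzius lists of cKO-E lie above all ctrl embryos.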

How the data were processed

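Cortical RNA of 19 embryos was depleted of ribosomal RNA and sequenced by Click-seq with unique molecular identifiers. Per the labels and the study's methods, the authors trimmed reads with cutadapt 1.13, aligned them to GRCm38 with STAR 2.5.2a, removed duplicate molecules with UMI-tools 0.5.3 and counted reads per gene with HTSeq 0.6.1p1. The strand setting is not given in the sources used here. The values the authors deposited are raw counts per gene. Rows that summarise unassigned reads, 23.3% to 31.9% of reads per library, were left out of library sizes and tests.

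Counts were tested with edgeR 4.0.16 in R 4.3.3 by the quasi-likelihood test, with TMM factors, filterByExpr at a minimum count of 10, the 2 groups compared in each fit and Benjamini-Hochberg adjustment over all genes tested. Calls were made at a false discovery rate of 0.05, and the 0.001 of the study is given beside it. The step was tested on simulated data. The SE is the absolute log2 fold change over the square root of F, and intervals are 1.96 SE on each side. Each library is 1 embryo, so p-values measure the spread between embryos. The main fits treat littermates as independent, so these p-values do not measure the spread between litters. The embryos came from 2 litters in dKO-E, 4 in ctrl and 5 in cKO-E. Shallow libraries are less precise. No 2 libraries agreed within sampling noise. Per-embryo values are given for the 2 members with the smallest p in each role among those called, *Spc24* and *Ube2c* were added after their values were seen, and lists name up to 4 called genes. The members and lists were chosen with earlier results of these data known. Alternatives were other tests, filters, scalings, covariates, blocks, batches, sexes and thresholds, and each embryo left out. Littermate values were added after seeing the data.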

Additional observations from a re-analysis of the deposited data

Results flagged for a closer look

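Of 90 groups of embryos examined for the 29 members called in at least 1 comparison and for the summed level, 7 held 1 embryo whose gap to the next was wide for its group by Dixon's criterion, and chance gives about 1 in 20. In 5 of them it was ctrl H, the highest ctrl embryo. *Smc4* was at 243.8 CPM there and at 217 CPM in the next ctrl embryo, *Aurkb* at 49.8 and 41.6 CPM, *Kif15* at 244 and 196 CPM, *Tpx2* at 234 and 199.7 CPM, and *Kif23* at 132 and 104 CPM. *Smc4* was at 148 CPM in dKO-E A and at 208 CPM in the next dKO-E embryo. *Bub1b* was at 147 CPM in dKO-E B and at 128 CPM in the next.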

How the results depend on the processing

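Percentages in brackets are the shares of all genes called in the same direction. The 17 members lower in cKO-E than ctrl became 7 with total counts as the scale (7.8%) and 11 with the replicate block (8.9%). They became 3 in batch 2 alone (2.7%, with 0 members higher) and 7 in females alone (6.5%). At a false discovery rate of 0.01 they were 4 (5.5%), and at 0.001 they were 1 (2.32%, with 0 members higher). With 1 embryo left out they ranged from 5 without cKO-E C (7.46%) to 25 without ctrl B (10.3%). The 1 higher and 2 lower in dKO-E than ctrl became 0 and 1 without a filter (1.52% and 3.61%) and 5 and 1 with total counts (15.7% and 6.1%). Members higher were 2 with the strict filter (6.94%) or a fit over all libraries (6.41%), and 4 with sex as a covariate (6.05%). Calls went to 0 and 0 with the replicate block (2.35% and 6.6%) or litter as a block (1.09% and 4.05%). Batch 1 gave 3 and 1 (3.5% and 8.19%), batch 2 gave 0 and 1 (0.709% and 2.53%), and males gave 2 and 1 (2.26% and 6.44%). At 0.01 there were 0 and 1 (1.56% and 5.3%), and at 0.001 there were 0 and 0 (0.246% and 2.34%). Leaving out 1 embryo gave 0 to 4 higher (3.77% to 6.32%, with 4 without ctrl H) and 1 to 2 lower (7.98% to 9.99%). Its median, 0.06, moved to 0.18 with litter as a block and to -0.078 in batch 2. The 22 higher and 1 lower in dKO-E than cKO-E became 0 and 0 in batch 2, 1 and 0 at 0.001, 10 higher at 0.01 and 33 higher without a filter or with total counts, and ranged from 10 higher without cKO-E C to 33 without dKO-E A. The cause of these differences was not tested, beyond fewer samples in the batch, sex and omission fits and stricter thresholds. The replicate letters do not pair the embryos, since 1 of 4, 1 of 5 and 1 of 5 same-letter pairs had a correlation of deviations over 0.1. No called value changed sign in the alternatives run, but the uncalled median in dKO-E against ctrl did in batch 2. Depth limits *Pttg1*, tested only without a filter, and *Spc24*.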
